A study of Rattus norvegicus with 60 samples.

Results

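Potassium channel genes were followed across the brain regions of alcohol non-preferring rats and of a congenic strain derived from them. Members were taken by gene symbol. A probe set is a group of probes that together read a transcript. It was a member if its only gene symbol starts with Kcn and its mean log2 signal over all 60 arrays reached the 40th percentile of the 31042 non-control probe sets, which lay at 7.68. The array carries 126 such probe sets for 75 genes, and 74 probe sets for 45 genes were members, among 18625 probe sets kept in all. The rule used neither region nor line. Just inside the limit lay Kcna2 by its probe set 1370612_at (mean log2 signal 7.73) and Kcnc4 by 1391369_at (7.80), and just outside lay Kcnj9 by 1369418_at (7.675) and Kcnj6 by 1370704_at (7.674). Of the members, 2 passed only through the region where they were high, Kcna5 and the probe set 1370612_at of Kcna2.

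The study profiled 12 adult rats, 6 of the NP line, which was selectively bred not to prefer alcohol, and 6 of the congenic strain NP.P. NP.P rats carry a stretch of chromosome 4 from the alcohol-preferring P line on the NP background, which is known of the study but is no part of the labels. Each animal gave the striatum, accumbens, amygdala, hippocampus and frontal cortex, so a region holds 12 arrays and a line in a region 6. No drug or alcohol treatment is named in the labels, the rats were handled daily beforehand, and sex is not given. The comparisons ask how channel transcripts differ between regions and whether any differ between the lines.

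Potassium channels let potassium leave or enter the cell and so set the resting potential, the shape of the action potential and the rate of firing. Voltage-gated (Kv) channels are tetramers of pore subunits. The Kv1 family (Kcna) sits in axons, the Kv3 family (Kcnc) allows fast spiking, the Kv4 family (Kcnd) carries the transient A-type current of dendrites, and the Kv7 family (Kcnq) carries the M-current. Modifier subunits (Kcng, Kcns, Kcnv) form no channel alone and change the gating of the Kv2 family. Kcnj genes encode inward rectifiers and Kcnk genes the two-pore channels of the resting leak. Because tissue pieces were measured, fewer cells of a type and less RNA per cell cannot be told apart in any of the regional differences.

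All but 1 of the families held members. Voltage-gated pore subunits were Kv1 with 5 genes, Kv3 with 3, Kv4 with 3, Kv7 with 2, the EAG, ERG and ELK family (Kcnh) with 4, and modifiers with 4. The Kv beta and KChIP subunits counted 6 genes, other auxiliary subunits 2, calcium- or sodium-activated channels 3, inward rectifiers 7 and two-pore channels 6. Of the Kv2 family only Kcnb2 is on the array under a single symbol, and it was not kept. The highest mean log2 signals belonged to Kcnab2 (12.12), Kcnab1 (12.11), Kcnip2 (11.91), Kcnip3 (11.91) and Kcnq5 (11.87), of which the first 4 are auxiliary subunits. Signals of different probe sets depend on their probes, so this order is of signals and not of transcript numbers. Where a gene had several member probe sets, the one of highest mean stands for it below unless an ID is given.

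Promoter sequences are shown for genes picked among those with wide regional differences, 3 with their highest signal in frontal cortex and 1, Kcnj16, with its highest in amygdala. Each is the stretch of 250 bases before the RefSeq start on assembly GRCr8, 5′ to 3′ on the gene's strand, and capitals mark the GC box GGGCGG, searched on both strands.
Kcns1 promoter (chr3:173262347-173262596, minus strand): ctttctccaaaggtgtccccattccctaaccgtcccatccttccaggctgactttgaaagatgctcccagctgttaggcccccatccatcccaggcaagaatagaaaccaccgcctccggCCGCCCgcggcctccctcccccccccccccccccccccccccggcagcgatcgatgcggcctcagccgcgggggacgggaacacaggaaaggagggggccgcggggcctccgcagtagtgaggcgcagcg
Kcns3 promoter (chr6:39584106-39584355, minus strand): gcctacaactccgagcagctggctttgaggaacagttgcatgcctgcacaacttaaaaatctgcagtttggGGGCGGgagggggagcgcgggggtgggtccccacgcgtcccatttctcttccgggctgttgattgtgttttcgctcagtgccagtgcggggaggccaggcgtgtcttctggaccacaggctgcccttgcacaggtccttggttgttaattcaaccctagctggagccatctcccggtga
Kcnk4 promoter (chr1:213555862-213556111, minus strand): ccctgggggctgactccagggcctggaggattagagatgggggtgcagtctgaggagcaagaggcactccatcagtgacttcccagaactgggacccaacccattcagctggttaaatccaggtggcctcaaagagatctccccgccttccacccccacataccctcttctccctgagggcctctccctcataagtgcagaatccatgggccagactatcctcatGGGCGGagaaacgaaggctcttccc
Kcnj16 promoter (chr10:96517074-96517323, plus strand): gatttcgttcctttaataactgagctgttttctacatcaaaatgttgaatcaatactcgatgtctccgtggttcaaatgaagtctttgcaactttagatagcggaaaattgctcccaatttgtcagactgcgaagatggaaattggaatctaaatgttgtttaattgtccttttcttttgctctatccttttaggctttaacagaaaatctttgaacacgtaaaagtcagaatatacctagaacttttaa
The GC box was present in the Kcns1, Kcns3 and Kcnk4 stretches and absent from that of Kcnj16, which had a GC content of 33.6% against 68.8% for Kcns1. Over 27457 promoters of that length, 32.1% held GGGCGG, and so did 17 of the 31 member genes with an entry. The TATA box TATAAA, searched on both strands, was found in 13.2% of all promoters and in 0 of the 31. The E-box CANNTG was found in 65.4% of all promoters and in 21 of the 31. For the cyclic AMP response element TGACGTCA these were 1.68% and 0. These are matches of letters only, and binding was not measured. Kcnv1 is named only.

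Of the 60 arrays, 7 stood apart from the other arrays of their labelled region. They were amygdala congenic 3, hippocampus congenic 3, amygdala NP 6, accumbens NP 8, hippocampus NP 8, accumbens congenic 9 and hippocampus NP 11. The amygdala array of congenic animal 3 resembled hippocampus most and its hippocampus array resembled amygdala. The accumbens array of NP animal 8 resembled hippocampus and its hippocampus array resembled accumbens. Labels were kept, and results are also given without these arrays, which lie in accumbens, amygdala and hippocampus. Markers of medium spiny neurons, the principal cells of striatum, had a median mean log2 signal of 12.34 in striatum and 11.78 in accumbens, against 10.58 in amygdala, 9.10 in hippocampus and 9.28 in frontal cortex. The accumbens arrays ran down to 8.90 and the hippocampus arrays up to 12.00, and without the 7 arrays the ranges were 11.41 to 12.00 and 8.93 to 9.14. Choroid plexus markers were highest in hippocampus, with a median of 11.72 and a range of 8.54 to 12.34. The part of either marker list in the results below was not tested.

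Each region was compared with the mean of the other 4 in limma with the animal as a block, and a probe set was called at a Benjamini-Hochberg adjusted p under 0.05 over all 18625 probe sets. All 74 members differed between regions in the test over the 5 regions, the largest adjusted p being 0.0225. So did 93.3% of all probe sets, so this count says little of the members. The size of the differences did separate them from the array as a whole. The distance between a member's highest and lowest regional mean had a median of 0.74 log2 units, against 0.41 over all probe sets kept. It was 2-fold or more for 22 of the 74 members (29.7%), against 6.52% of all. The 22 include Kcna5, which passed the signal limit through accumbens alone. They are probe sets and not separate genes, since Kcnab1, Kcnab2, Kcng2, Kcnj16 and Kcnt1 each stand among them by multiple probe sets. The regions with the highest mean were frontal cortex for 26 members and striatum for 24, then accumbens for 10, hippocampus for 8 and amygdala for 6. For striatum this was 32.4% of the members against 18.1% of all probe sets, while for frontal cortex it was 35.1% against 28.1%. The shares in accumbens (13.5%), hippocampus (10.8%) and amygdala (8.11%) stood against 15.5%, 19.9% and 18.4% of all. The accumbens share includes Kcna5 and the Kcna2 probe set 1370612_at, which passed the signal limit through that region alone. Within a region, the standard deviation over the 12 arrays had a median over members of 0.13 in striatum and frontal cortex, 0.23 in accumbens, 0.17 in amygdala and 0.20 in hippocampus. With the 7 arrays left out it was 0.12, 0.13 and 0.11 in the latter 3.

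**Figure D1:**
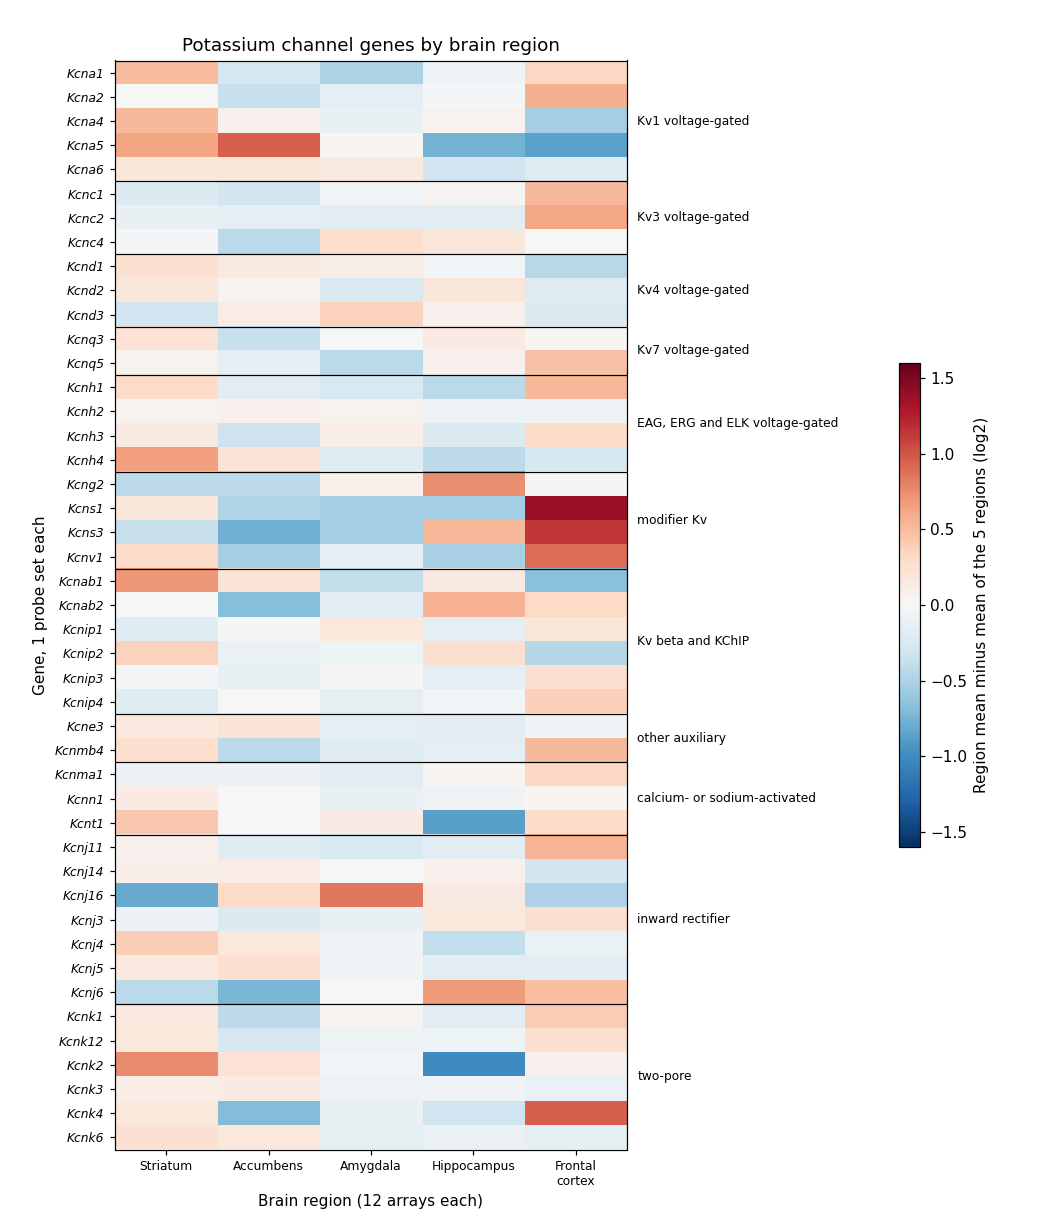
Heat map of 45 potassium channel genes (rows, 1 probe set each, grouped by family) in 5 brain regions (columns, mean of 12 arrays). Colour gives the regional mean minus the mean of the 5 regions in log2 units, red higher and blue lower; the deepest red cells are the modifiers Kcns1 and Kcns3 in frontal cortex.

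Frontal cortex held the largest group of strongly raised channel genes, led by modifier subunits. Of the 74 members, 33 were called higher and 27 lower there (all probe sets, 35.6% higher and 25.7% lower). At least 1.5-fold higher were 13 members for 12 genes, 17.6% of the members against 3.11% of all probe sets, and at least 1.5-fold lower were 6 (8.11% against 1.85%). Kcna5 is among these 6, and Kcna5 and the Kcna2 probe set 1370612_at are among the 27. Both passed the signal limit through accumbens alone, so their calls are no support for these counts. The 12 genes were Kcns1, Kcns3, Kcnk4, Kcnv1, Kcnc2, Kcna2, Kcnj11, Kcnh1, Kcnc1, Kcnmb4, Kcnj6 and Kcnq5. For 9 genes every frontal cortex array lay above all arrays of the other regions, which 1.88% of all probe sets showed. They were Kcns1, Kcns3, Kcnk4, Kcnv1, Kcnc2, Kcna2, Kcnmb4, Kcnq5 and the KChIP gene Kcnip4.

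Kcns1, which encodes the modifier Kv9.1, had log2 signals of 8.94 at the lowest, 9.74 at the median and 10.47 at the highest of the 12 frontal cortex arrays. In striatum these were 8.25, 8.43 and 8.72, and the medians of accumbens, amygdala and hippocampus were 7.87, 7.76 and 7.71. No frontal cortex array reached down into any other region, and striatum was the second highest. The difference from the other 4 regions was 1.72 ± 0.07 (log2, SE, 3.29-fold, adjusted p = 5.33e-25). Kcns1 also had the widest spread of the named genes within frontal cortex, with a standard deviation of 0.44.

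Kcns3, the modifier Kv9.3, reached 9.94, 10.10 and 10.19 in frontal cortex (lowest, median and highest log2 signal). Hippocampus came next at a median of 9.62, with a lowest array of 8.34 that is 1 of those that stood apart and of 9.47 without them. Striatum, amygdala and accumbens had medians of 8.55, 8.35 and 8.01. The gene was thus high in frontal cortex and hippocampus and low in the other 3 regions. Frontal cortex exceeded the other regions by 1.43 ± 0.12 (2.69-fold, adjusted p = 8.2e-15) and hippocampus by 0.66 ± 0.12 (adjusted p = 5.09e-06, 0.91 without the 7 arrays). Accumbens was lower by 0.95 on the log2 scale (log2 difference -0.95, adjusted p = 1.24e-09).

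Kcnv1, the modifier Kv8.1, had a narrow band in frontal cortex, from 11.71 to 11.96 with a median of 11.85, and every array there lay above the striatum arrays, which ran from 11.02 to 11.49. Accumbens and hippocampus had the lowest medians, 10.50 and 10.41. The log2 difference was 1.11 ± 0.07 in frontal cortex (2.16-fold, adjusted p = 8.82e-19), -0.66 in accumbens and -0.65 in hippocampus. The fourth modifier gene, Kcng2 (Kv6.2), had another pattern. Its log2 signal in hippocampus had a median of 9.47 and a lowest and highest array of 8.24 and 9.92, while the medians elsewhere ran from 8.11 in accumbens to 8.61 in amygdala. The groups overlapped through arrays that stood apart, and without these the hippocampus arrays began at 9.28, above every array of the other regions (1.88% of all probe sets). Hippocampus was higher by 0.93 ± 0.12 (1.9-fold, adjusted p = 1.85e-08), and by 1.24 without the 7 arrays. A further probe set of Kcng2, 1374814_at, gave 1.11 ± 0.13.

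Among the other genes raised in frontal cortex, Kcnk4 encodes TRAAK, a two-pore channel opened by membrane stretch. Its log2 signal was 9.71 to 10.12 in frontal cortex, 8.93 to 9.38 in striatum and 7.97 to 8.54 in accumbens. Frontal cortex lay above and accumbens mostly below all other arrays, with differences of 1.19 ± 0.05 (2.28-fold, adjusted p = 2.82e-25) and -0.87 ± 0.05 (adjusted p = 2.16e-19). Leaving out the 7 arrays, all accumbens arrays lay below all others (2.19% of all probe sets).

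The Kv3 genes Kcnc1 and Kcnc2, whose channels let interneurons fire at high rates, were both called higher. Kcnc2 had log2 signals of 12.03 to 12.36 in frontal cortex, with medians of 11.33 to 11.36 in each other region. By this probe set the 4 other regions thus lay at nearly one level, and frontal cortex was higher by 0.78 ± 0.05 (1.72-fold, adjusted p = 1.63e-19). The weaker Kcnc2 probe sets 1370557_a_at and 1370559_at were also higher in frontal cortex (0.56 and 0.48). In accumbens they were lower by more than the brightest one (-0.40 and -0.39 against -0.20), so accumbens was not level with the rest by these. Kcnc1 was higher by 0.64 ± 0.04 (1.56-fold). Kcna2, an axonal Kv1 subunit, had frontal cortex arrays from 11.87 to 12.16 and none above 11.54 elsewhere, a difference of 0.71 ± 0.03 (1.63-fold, adjusted p = 3.83e-23). Markers of GABA interneurons had their highest median, 11.68, in frontal cortex, against 11.03 to 11.38 in the other regions. They were not of 1 direction, since of the 6 markers 3 were called higher in frontal cortex and 2 lower (all probe sets, 35.6% and 25.7%). Markers of cortical and hippocampal excitatory neurons were also highest there, at 11.02, against 10.81 in striatum, 10.57 in hippocampus, 10.18 in amygdala and 9.81 in accumbens. Of these 8 markers, 5 were called higher and 0 lower in frontal cortex. The same counts held in striatum (all probe sets, 26.3% and 43.3%). In hippocampus 4 were higher and 3 lower (33.1% and 21.2%). The part of either marker list in these results was not tested.

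Kcnj11, the pore of the ATP-sensitive channel, was 1.61-fold higher in frontal cortex (0.69 ± 0.05, adjusted p = 7.42e-16), and Kcnh1, the EAG channel, 1.59-fold (0.67 ± 0.05). Of the further Kcnj11 probe sets, 1387698_at was also higher in frontal cortex (0.59). The probe set 1369782_a_at was not called there (0.06, adjusted p = 0.370) and was higher in striatum (0.40). Kcnmb4, a brain beta subunit of the large-conductance calcium-activated channel, was 1.56-fold higher (0.64 ± 0.04), while the pore gene of that channel, Kcnma1, was 1.33-fold higher (0.41 ± 0.06, adjusted p = 4.38e-08). Kcnq5, an M-current subunit, was 1.51-fold higher (0.59 ± 0.05) and was lower in amygdala (-0.54 ± 0.05, adjusted p = 7.7e-12). Its weaker probe set 1379212_at was called neither in frontal cortex (-0.03) nor in amygdala (-0.03). Another set was called lower in frontal cortex. Kcnab1 differed by -0.84 ± 0.08, Kcna4 by -0.66 ± 0.06, Kcnj16 by -0.62 ± 0.10, Kcnip2 by -0.56 ± 0.07 and Kcnd1 by -0.56 ± 0.04. None of the 7 arrays is from frontal cortex.

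**Figure D2:**
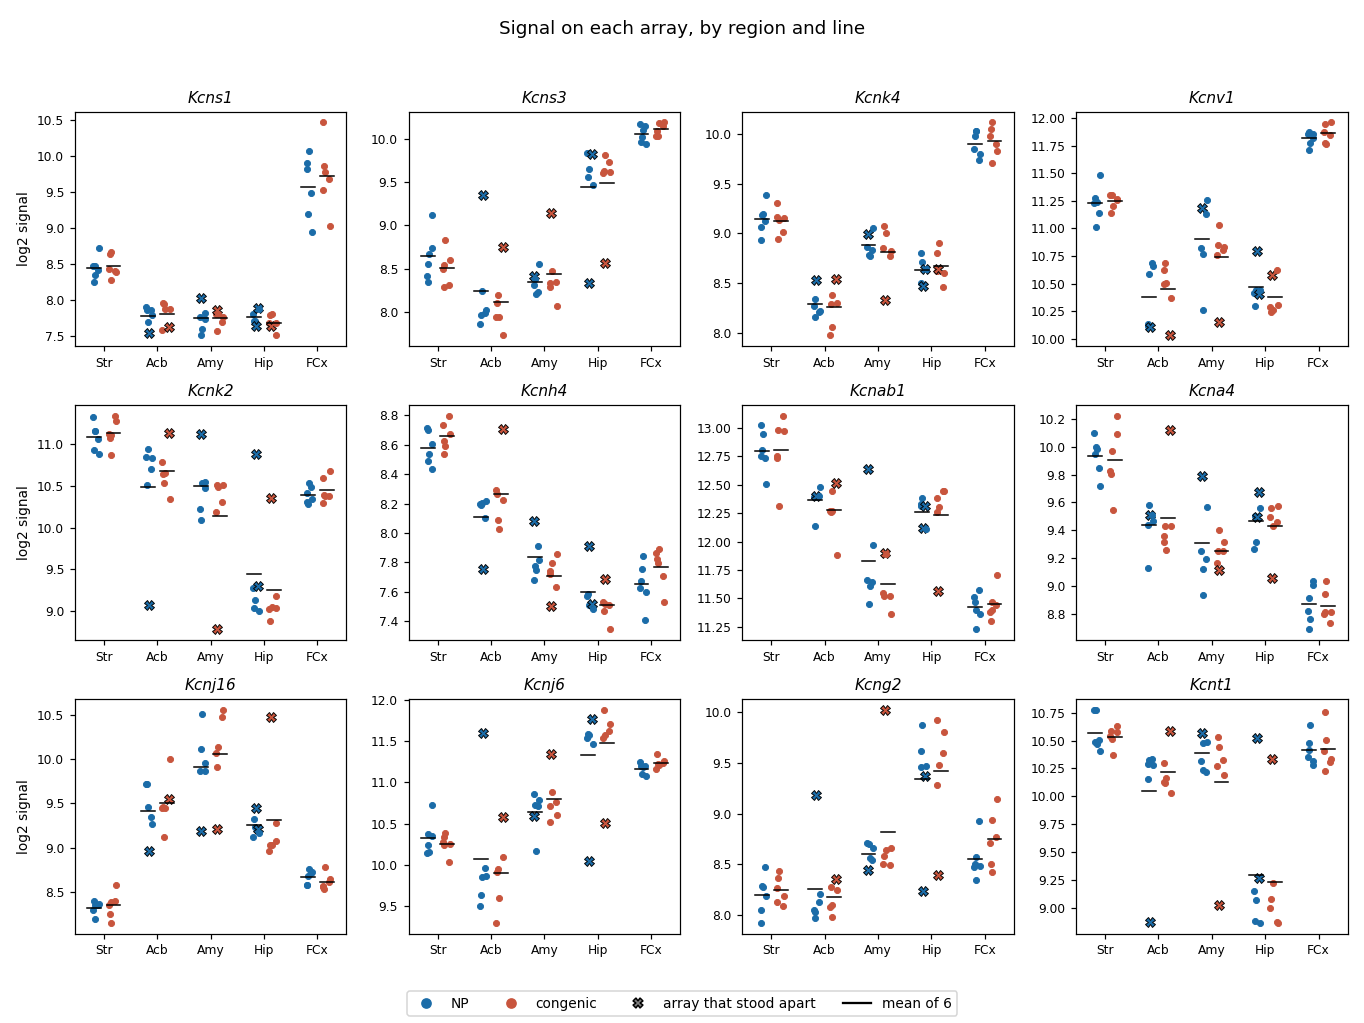
Log2 signal of 12 potassium channel genes on each of the 60 arrays, by region (Str, striatum; Acb, accumbens; Amy, amygdala; Hip, hippocampus; FCx, frontal cortex) and line (blue, NP; red, congenic). Bars are means of 6 arrays and crosses the arrays that stood apart; for Kcns1, Kcns3, Kcnk4 and Kcnv1 every frontal cortex array lies above all others.

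Striatum was the region with the most members called higher. There 42 of the 74 members were higher and 14 lower, while over all probe sets 26.3% were higher and 43.3% lower. The median difference of the members was 0.17 log2 units and that of all probe sets -0.07. At least 1.5-fold higher were 12 members for 10 genes (16.2% against 2.43% of all), and at least 1.5-fold lower were 2, both of Kcnj16 (2.24% of all). By the probe set of highest mean only 6 genes were at least 1.5-fold higher, against 12 in frontal cortex. After leaving out the 7 arrays, 9 members were 1.5-fold higher (2.45% of all). All 7 two-pore probe sets and 5 of 6 Kv1 probe sets were called higher in striatum. The 5 include Kcna5 and the Kcna2 probe set 1370612_at, which passed the signal limit through accumbens alone. Kcna5 is also among the 12 members at least 1.5-fold higher. The brightest Kcna2 probe set, 1379092_at, was not called in striatum (-0.02).

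Kcnk2 encodes TREK-1, a two-pore channel gated by stretch and arachidonic acid. Its log2 signal in striatum was 10.87 at the lowest, 11.11 at the median and 11.33 at the highest, against a median of 9.10 in hippocampus and 10.38 to 10.68 in the other regions. Striatum was thus the top and hippocampus the bottom of the 5 regions. Striatum exceeded the others by 0.94 ± 0.15 (1.92-fold, adjusted p = 5.51e-07), and hippocampus was 2.39-fold lower (-1.26 ± 0.15, adjusted p = 2.82e-09). With the 7 arrays left out, the hippocampus arrays ran from 8.89 to 9.28, all below every other array (1.23% of all probe sets), and the difference was -1.56.

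Kcnab1, a beta subunit that speeds the inactivation of Kv1 channels, had log2 signals in striatum of 12.31, 12.78 and 13.10 (lowest, median and highest). Accumbens and hippocampus followed with medians of 12.39 and 12.31, and amygdala and frontal cortex with 11.62 and 11.42. The difference of striatum was 0.87 ± 0.08 (1.83-fold, adjusted p = 1.27e-13). Its Kv1 partner Kcna4, which itself inactivates fast, was also highest in striatum and lowest in frontal cortex. Its medians were 9.96 and 8.82, and striatum was higher by 0.65 ± 0.06 (1.57-fold, adjusted p = 6.45e-13). Kcna1, the Kv1.1 subunit, was higher in striatum by 0.63 ± 0.07 (1.55-fold) and in frontal cortex by 0.41 ± 0.07, and lower in amygdala by 0.63 (log2 difference -0.63, adjusted p = 3.95e-10).

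Kcnh4, an ELK channel gene, was graded over the regions, with medians of 8.61 in striatum, 8.20 in accumbens, 7.76 in amygdala, 7.73 in frontal cortex and 7.52 in hippocampus. The last 3 lie close together, and their arrays overlapped. Striatum was higher by 0.81 ± 0.05 (1.76-fold, adjusted p = 2.77e-18) and accumbens by 0.28 ± 0.05 (adjusted p = 1.31e-05). Both are the regions in which the medium spiny markers were highest, and the part of these cells was not tested. Kcnj4, the strong inward rectifier Kir2.3, was higher in striatum (0.49 ± 0.06) and accumbens (0.21) and lower in hippocampus (-0.49 ± 0.06). Its weaker probe set 1369487_a_at was also higher in striatum (0.76) and lower in hippocampus (-0.56). It was not called in accumbens (-0.09, adjusted p = 0.602), and was called higher in amygdala (0.37) and lower in frontal cortex (-0.48), where the brightest one was not called.

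Kcnj16 encodes Kir5.1, an inward rectifier that works together with Kir4.1, and had the widest regional range of the members. By its probe set 1373991_at the striatum arrays ran from 7.48 to 8.05, below every array of the other regions, which 2.07% of all probe sets showed. Frontal cortex had a median of 8.59, hippocampus of 9.23, accumbens of 9.65 and amygdala of 10.27. The highest and lowest regional means were 5.49-fold apart. Striatum was 3.38-fold lower (-1.76 ± 0.12, adjusted p = 8.05e-18), amygdala 2.49-fold higher (1.32 ± 0.12, adjusted p = 1.09e-12) and accumbens 1.69-fold higher (0.76 ± 0.12). The probe set of highest mean, 1370076_at, was 2.01-fold lower in striatum (adjusted p = 2.27e-12), higher by 1.06 ± 0.10 in amygdala and by 0.40 ± 0.10 in accumbens. Markers of astrocytes had medians between 12.46 and 12.87 in all regions, lowest in striatum and highest in hippocampus, and their part was not tested. Kcnj10, the gene of Kir4.1, lay under the signal limit at a mean of 7.58.

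Accumbens had more members lower than higher, 38 against 19, and the array as a whole leaned the same way (all probe sets, 38.9% and 23.5%). With quantile normalization between arrays the split was 30 against 23, and the shares of all probe sets were not counted for that setting. At least 1.5-fold lower were 7 members (9.46% against 2.75% of all), and at least 1.5-fold higher were 2 (0.913% of all). The 2 were Kcna5 and the Kcnj16 probe set 1373991_at. Kcna5 and the Kcna2 probe set 1370612_at, both among the 19, passed the signal limit through accumbens alone. Their accumbens calls are therefore no support for these counts. Kcna5, the Kv1.5 subunit, had a median log2 signal of 8.96 in accumbens, 8.52 in striatum, 7.98 in amygdala, 6.99 in frontal cortex and 6.89 in hippocampus. The accumbens arrays reached from 6.97 to 9.23, and from 8.68 without the 7 arrays. Accumbens differed from the other regions by 1.20 (2.3-fold, 1.42 without these arrays), striatum by 0.79 and frontal cortex by -1.07. These are given as a description with no test, since the gene passed the signal limit through accumbens alone. The levels in hippocampus and frontal cortex lay under the signal limit of 7.68, so these differences are measured against weak signals.

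Kcnj6 encodes GIRK2, the G-protein-gated rectifier behind slow inhibition by many transmitters, and was low in accumbens and high in hippocampus. Its medians were 9.89 in accumbens, 10.27 in striatum, 10.72 in amygdala, 11.21 in frontal cortex and 11.57 in hippocampus. Single arrays crossed this order, the farthest being an accumbens array at 11.59 and a hippocampus array at 10.05, both among the 7. The log2 difference was -0.92 ± 0.13 in accumbens (adjusted p = 7.62e-08) and 0.85 ± 0.13 in hippocampus (1.8-fold, adjusted p = 6.36e-07). Leaving those out, they were -1.20 and 1.12. Of the other G-protein-gated rectifiers, Kcnj3 (GIRK1) was higher in frontal cortex (0.34 ± 0.10, adjusted p = 0.00297) and Kcnj5 (GIRK4) in accumbens (0.32 ± 0.05, adjusted p = 3.88e-08). Kcnab2, a further Kv1 beta subunit, differed by -0.85 ± 0.10 in accumbens and by 0.69 ± 0.10 in hippocampus.

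In amygdala 11 members were called higher and 26 lower (all probe sets, 29.1% and 18.6%), so the members leaned lower where the array as a whole leaned higher. The 26 include the Kcna2 probe set 1370612_at, which passed the signal limit through accumbens alone. Leaving out the 7 arrays gave 14 higher and 44 lower (39.2% and 23.7% of all). At least 1.5-fold higher were 3 (1.04% of all), 2 of Kcnj16 and the probe set 1369144_a_at of Kcnd3, and as many were 1.5-fold lower (0.456% of all), or 5 when the 7 arrays were left out (0.762%). Kcnd3, the Kv4.3 subunit of the A-type current, had its highest median in amygdala, 10.52 by the probe set of highest mean, against 10.17 in accumbens, 10.13 in hippocampus, 9.83 in frontal cortex and 9.76 in striatum. Amygdala was higher by 0.46 ± 0.05 (1.37-fold, adjusted p = 1.2e-10) by that probe set and by 0.66 ± 0.06 (1.58-fold) by 1369144_a_at. The other Kv4 genes differed in direction there. Kcnd2 was lower (-0.29 ± 0.05) and Kcnd1 higher (0.13). Kcnip1, a calcium-binding KChIP partner of Kv4 channels, was 1.16-fold higher in amygdala (0.21 ± 0.05, adjusted p = 2.02e-04). Kcna6 was higher by 0.18 ± 0.07 (adjusted p = 0.0316), and was not called under quantile normalization (0.12, adjusted p = 0.163).

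In hippocampus 17 members were higher and 31 lower (all probe sets, 33.1% and 21.2%). At least 1.5-fold higher were 5 (2.02% of all) and at least 1.5-fold lower were 6 (1.66% of all), and after leaving out the 7 arrays 6 (2.78% of all) and 9 (2.48%). Kcna5 is among the 6 lower with all arrays, and Kcna5 and the Kcna2 probe set 1370612_at are among the 31. Both passed the signal limit through accumbens alone, so their calls are no support for these counts. Besides Kcnk2, the lowest was Kcnt1, the sodium-activated channel Slack. Its log2 signal in hippocampus was 8.87, 9.08 and 10.52 (lowest, median and highest), against medians of 10.23 in accumbens, 10.32 in amygdala, 10.38 in frontal cortex and 10.53 in striatum. Only arrays that stood apart crossed over, and the hippocampus arrays left without them, from 8.87 to 9.22, lay below all others (1.23% of all probe sets). The difference was -1.08 ± 0.13 (2.11-fold lower, adjusted p = 1.85e-09), and -1.38 without these arrays. Kcnip2 was higher in hippocampus by 0.32 ± 0.07 (adjusted p = 3.62e-04) and in striatum by 0.45. Of the 7 two-pore probe sets, 6 were lower in hippocampus and 0 higher, the counterpart of striatum.

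Several probe sets of 1 gene did not tell the same story. Of the 45 genes, 23 had more than 1 member probe set, and each probe set was paired with every other of its gene in each region. Both probe sets were called in 86 pairs, of which 71 had the same direction and 15 the opposite. The 15 belong to 6 genes, Kcna2, Kcnab2, Kcnc4, Kcnd3, Kcnj3 and Kcnt1. For Kcna2, 1379092_at was lower in accumbens (-0.45 ± 0.03) and higher in frontal cortex, while 1370612_at differed by 0.34 in accumbens and by -0.18 in frontal cortex. The latter probe set passed the signal limit through accumbens alone, and without its pairs 13 opposite pairs in 5 genes were left. For Kcnc4, a Kv3 gene, 1393163_at differed by -0.54 ± 0.05 in accumbens and 1391369_at by 0.27 ± 0.04. Both 1370612_at and 1391369_at lie just inside the signal limit. Kcnab2 differed most. In striatum 1387689_at was 2.51-fold higher (1.33 ± 0.11, adjusted p = 7.83e-15) and 1397663_at 1.76-fold higher, while the brightest probe set, 1390674_at, gave -0.01 ± 0.10. The files do not say which transcript forms the probe sets read, so statements on these 6 genes hold for the probe set named. For Kcnj11 and Kcnq5 too, a further probe set was not called in frontal cortex where the brightest one was. Their values likewise hold for the probe set used.

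**Figure D3:**
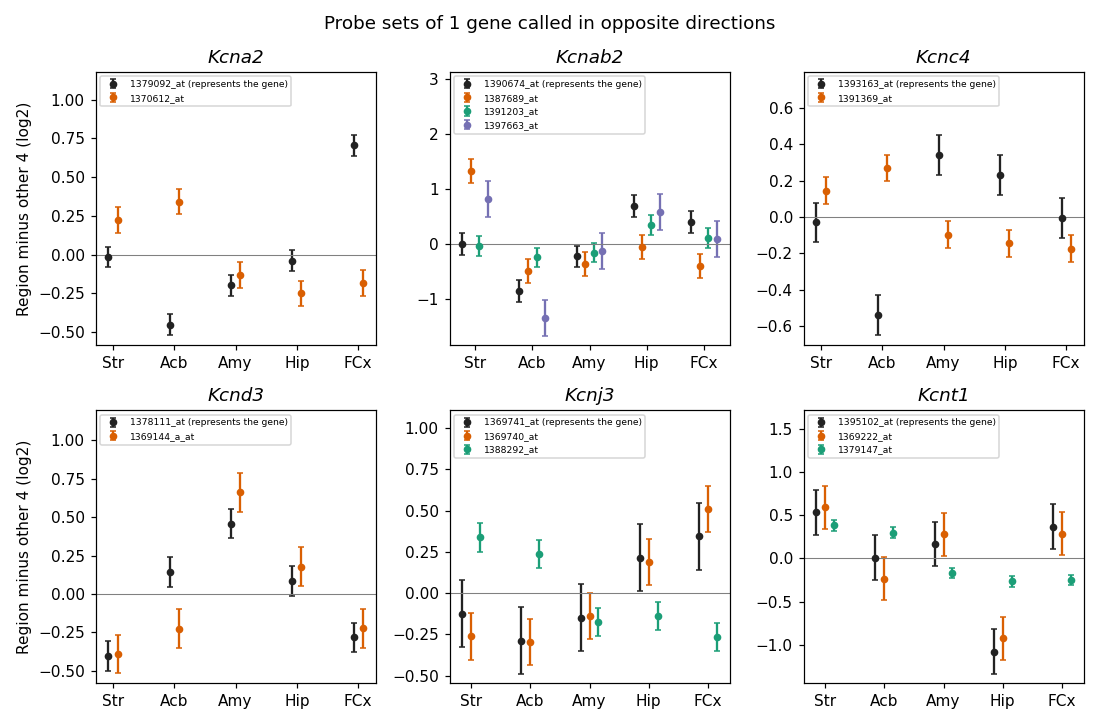
Difference of each region from the mean of the other 4 (log2, points) with its 95% confidence interval (bars) for each member probe set of the 6 genes with probe sets called in opposite directions. Black points are the probe sets of highest mean signal; in accumbens those of Kcna2 and Kcnc4 lie below 0 and the orange ones above.

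Genes that encode partners of these channels were also followed, 25 in all, of which 23 had a probe set kept. In frontal cortex 13 partners were called higher and 5 lower (35.6% and 25.7% of all probe sets), and 4 were at least 1.5-fold higher (3.11% of all). The tally ran the other way in accumbens, with 5 higher and 11 lower (23.5% and 38.9% of all), and in hippocampus, with 4 higher and 11 lower (33.1% and 21.2%). Striatum had 7 higher and 5 lower (26.3% and 43.3%), and amygdala 1 higher and 5 lower (29.1% and 18.6%). Dpp10, an auxiliary subunit of Kv4 channels, was 2.01-fold higher in frontal cortex (1.01 ± 0.11, adjusted p = 1.44e-10) and 1.82-fold lower in hippocampus (-0.87 ± 0.11). Rgs7 and Rgs6, which shorten the signal to G-protein-gated rectifiers, were higher in frontal cortex by 0.66 and 0.64 (SE 0.03 each). Abcc9, a sulfonylurea receptor of the ATP-sensitive channel, was higher by 0.63 ± 0.07, as was the pore gene Kcnj11 by its brightest probe set. The other receptor, Abcc8, was 1.55-fold lower in accumbens (-0.63 ± 0.06), where Pex5l, the trafficking partner of pacemaker channels, was lower too (-0.65 ± 0.11). In striatum Dlg2, a scaffold of Kv1 channels, was higher by 0.56 ± 0.05 and the pacemaker channel gene Hcn2 by 0.51 ± 0.05. Lgi1, a secreted partner of the Kv1 complex, was higher in hippocampus (0.56 ± 0.08, adjusted p = 1.46e-07).

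Between the lines, potassium channel transcripts could not be told apart. For each rat the mean log2 value over its 5 regions was taken, and limma compared the 6 means of congenic rats with the 6 of NP rats. No member was called (0 of 74), against 0.123% of all probe sets, and 3 members had an unadjusted p under 0.05 (5.33% of all). The 95% confidence intervals of the difference had a median half-width of 0.08 log2 units, and the bound farthest from 0 over all members was a 1.30-fold difference. Differences beyond that size in the mean over regions are thus outside the interval of every member, while smaller ones are not.

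The smallest p belonged to Kcnc4 (1393163_at), a Kv3 gene. Its mean over regions was 10.09, 10.14 and 10.21 in NP (lowest, median and highest of 6 animals) and 10.14, 10.30 and 10.34 in congenic animals. The groups overlapped. Congenic animals were higher by 0.13 ± 0.04 (SE, 1.09-fold, unadjusted p = 0.00283, adjusted p = 0.677). By region, the difference was 0.24 ± 0.07 in amygdala (adjusted p = 0.520) and 0.32 ± 0.10 in hippocampus (adjusted p = 0.982). The others with an unadjusted p under 0.05 were the Kcnab2 probe set 1391203_at (-0.17 ± 0.05, adjusted p = 0.725) and the Kcnip4 probe set 1370595_a_at (-0.19 ± 0.08, adjusted p = 0.911). The latter was -0.07 when the 7 arrays were left out.

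**Figure D4:**
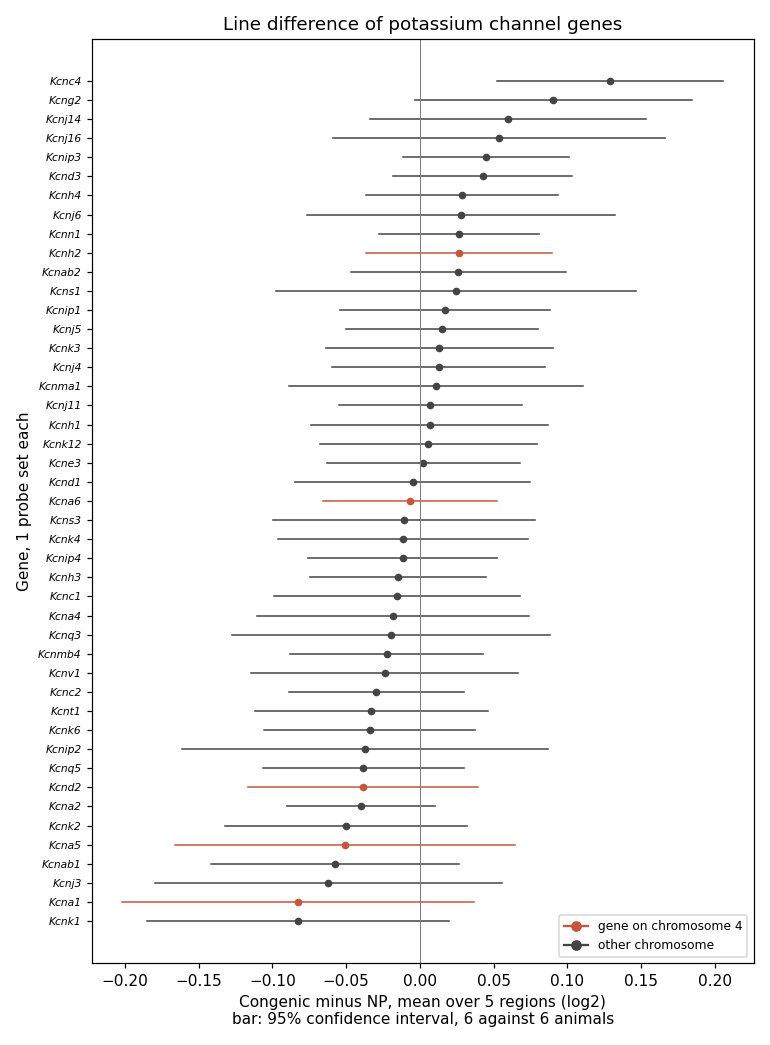
Congenic minus NP difference of the mean over 5 regions (log2, points) with its 95% confidence interval (bars, 6 against 6 animals) for 45 potassium channel genes, 1 probe set each, in order of the difference. Red marks genes on chromosome 4; only the interval of Kcnc4, at the top, leaves out 0.

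No member was called in any single region either, 0 of 74 each, where the shares of all probe sets called were 0.0644% in striatum, 0.00537% in accumbens, 0.0322% in amygdala, 0.00537% in hippocampus and 0.0537% in frontal cortex. Unadjusted p-values under 0.05 were found for 6 members in striatum (4.86% of all), 1 in accumbens (1.97%), 5 in amygdala (5.96%), 2 in hippocampus (3.95%) and 3 in frontal cortex (6.38%). When the 7 arrays were left out there were 7 in accumbens (6.56% of all), 9 in amygdala (7.08%) and 6 in hippocampus (7.77%), and still 0 called. With all arrays the 1 in accumbens was Kcna1. Its accumbens log2 signals were 9.30, 9.61 and 9.70 in NP and 8.66, 9.24 and 9.37 in congenic rats, overlapping between 9.30 and 9.37. The difference was -0.40 ± 0.12 (adjusted p = 0.946). The congenic array at 8.66 is 1 of the 7, and without these the difference was -0.28 (adjusted p = 0.593). In frontal cortex Kcnk12, a two-pore gene of the THIK group, had the smallest p of the members (0.24 ± 0.08 higher in congenic rats, adjusted p = 0.649). The lines failed to overlap for 1 member and region, Kcnab2 by 1387689_at in striatum (0.258% of all probe sets). NP arrays ran from 9.17 to 9.38 and congenic arrays from 9.40 to 9.91, a difference of 0.26 ± 0.07 (1.2-fold, unadjusted p = 0.00243, adjusted p = 0.724).

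A line difference that varied between regions was not called for any member in the interaction test (0 of 74, all probe sets 0%). An unadjusted p under 0.05 was found for 3, Kcnk12 (0.0149), Kcnc4 (0.0401) and Kcna1 (0.0444), 3.90% of all probe sets having one. Without the 7 arrays 10 members had one (10.8% of all), and the smallest adjusted p of a member was 0.181, for Kcnc4 and Kcnq3.

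**Figure D5:**
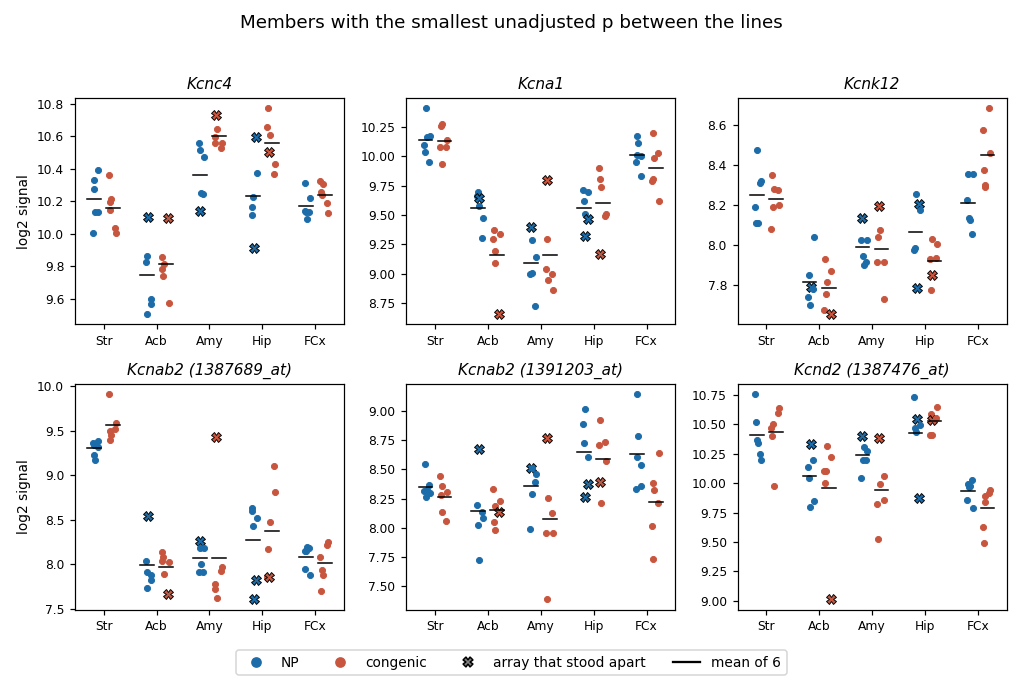
Log2 signal on each array by region (Str, striatum; Acb, accumbens; Amy, amygdala; Hip, hippocampus; FCx, frontal cortex) and line (blue, NP; red, congenic) for 6 probe sets among those with the smallest unadjusted p between the lines. Bars are means of 6 arrays and crosses the arrays that stood apart; the lines fail to overlap only for Kcnab2 (1387689_at) in striatum.

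Of the 45 genes, 5 lie on chromosome 4, which carries the exchanged segment: Kcnh2, Kcnd2, Kcna5, Kcna1 and Kcna6. In the gene order of the GRCr8 table none of them lies between Akr1b1 and Ppm1k, genes of that chromosome taken from earlier results of these data. Kcnh2 (the ERG channel) and Kcnd2 come before that run, and the cluster of Kcna5, Kcna1 and Kcna6 after it. The limits of the segment itself are not given in the sources used here. Their differences in the mean over regions were 0.03 for Kcnh2, -0.04 for Kcnd2, -0.05 for Kcna5, -0.08 for Kcna1 and -0.01 for Kcna6, and each 95% interval held 0. That of Kcna1 ran from -0.20 to 0.04, the widest of the 5 on the negative side. Of the partners, 0 of 23 were called between the lines in the mean over regions or in any region. Cntnap2 on chromosome 4, an adhesion protein that clusters Kv1 channels along axons, came closest (-0.15 ± 0.03, adjusted p = 0.308). It was called when the 7 arrays were left out, at -0.16 (adjusted p = 0.00733), and it was named after its values were seen.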

How the data were processed

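RNA of 5 brain regions of 12 rats was hybridised to 60 Affymetrix arrays, 1 animal and region per array, labelled singly per the labels' protocols. The authors deposited log2 values, between 4.58 and 16.01, with array medians from 8.23 to 8.35. How they normalized the arrays is not stated in any label or header used here. Of 31099 probe sets, 57 controls were left out, and probe sets whose mean reached the 40th percentile (7.68) entered the fits. Gene names came from the platform's probe table. limma 3.58.1 in R 4.3.3 fitted all 18625 probe sets kept, with Benjamini-Hochberg adjustment over all of them and a threshold of 0.05. Regions were compared with the animal as a fixed block. Lines were compared on animal means (6 against 6), in each region and as an interaction with region. The arrays that stood apart had a median correlation with their region under 0.98 or a regional profile correlation under 0.5. The animal number pairs the regions of a rat, per the labels. Deviations of arrays of the same animal correlated at a mean of 0.01 (120 pairs), against -0.01 for different animals (600 pairs). The number of arrays limits the precision. Animals are separate rats per the labels.

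Named were the 5 highest and 5 lowest genes called in each region, the 5 genes of smallest p for the line in the mean over regions and 3 in each region, and genes on chromosome 4, with further members given by family. A gene was represented by its probe set of highest mean. The members, gene lists, markers and tests were chosen with earlier results of these data known. Alternatives were quantile normalization, median centring, no filter, a 60th percentile filter, no animal block, the animal as a random block, each animal left out, and the 7 arrays left out, the last chosen after seeing the data. The fits were tested on simulated data.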

Additional observations from a re-analysis of the deposited data

Results flagged for a closer look

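Of 50 groups of 6 samples examined, 3 held a sample whose gap to the nearest other, divided by the group's range, exceeded the 95% critical value of Dixon's test, where chance gives about 1 in 20. The mean over regions of Kcnd2, a Kv4 subunit gene, was 11.22 in congenic animal 10 against 10.98 to 11.03 in the other congenic animals. The mean over regions of Kcna6, a Kv1 subunit gene, was 10.41 in NP animal 12 against 10.51 to 10.53 in the other NP animals. In amygdala, Kcna2 was 11.46 in NP animal 6 against 11.29 to 11.35 in the others, and that array is 1 of the 7 that stood apart.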

How the results depend on the processing

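The number of members called was 56 in striatum, 57 in accumbens, 37 in amygdala, 48 in hippocampus, 60 in frontal cortex and 74 over any region. With the 60th percentile filter, which leaves 42 members, these were 34, 29, 23, 29, 35 and 42, with 1 member at least 1.5-fold higher in accumbens and 3 in hippocampus. Without the 7 arrays amygdala had 58 members called, 5 of them at least 1.5-fold lower. Without the replicate block of the animal the counts were 56, 57, 41, 49, 60 and 74, and 0 for the interaction. Leaving out each animal gave 55 to 56 in striatum, 53 to 59 in accumbens, 34 to 43 in amygdala, 45 to 51 in hippocampus, 57 to 61 in frontal cortex, 72 to 74 over any region and 0 for each line comparison. No alternative run called a member between the lines. The difference of Kcnd2 in the mean over regions turned to 0.0072 without the 7 arrays, and that of Kcna6 ranged from -0.0247 to 0.00847 over the fits that left out an animal, the highest without animal 10, both from values near 0, and the cause was not tested. Among the named genes, 881 of 888 region values and 431 of 433 line values kept their direction and their side of the threshold. Weak signals near the limit bound what Kcna5 and the Kcna2 probe set 1370612_at can show.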

Other observations

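Members of weak signal that were higher in both striatum and accumbens were counted without the probe sets that passed the signal limit through 1 region alone. Of the 30 such members below the 60th percentile of signal, 9 (30%) were called higher in both regions, against 21.3% of the 5907 probe sets of that signal. Of the 42 brighter members 3 were (7.14%), those of Kcna6, Kcnab1 and Kcnj4, against 4.29% of 12417. The 9 belong to Kcnc4, Kcnd1, Kcne3, Kcnh4, Kcnj3, Kcnj5, Kcnk3, Kcnk6 and Kcnt1. With quantile normalization the share of weak members was again 30%, against 18.9% of all weak probe sets, and that of brighter members 16.7% against 8.71%. For Kcnc4 and Kcnj3 these are weak probe sets that ran against the brightest one of the same gene in accumbens.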
